A study of Sus scrofa with 4 samples.

Results

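Among the cells of porcine pancreatic ductal organoids (PPDO), those with the most RNA of GPNMB, MMP3, BBOX1, PTPRZ1, MRC2 and PRR16 were taken as a set. For every organoid cell that passed the filters, the natural log of 1 plus the unique molecular identifiers (UMIs, counted RNA molecules) per 10000 was averaged over these 6 genes. The highest 15% of cells of each library were kept. They were 1333 of 8885 cells in PPDO 1 and 1101 of 7337 cells in PPDO 2, or 2434 of 16222 organoid cells, and are called members below. The remaining 7552 and 6236 organoid cells are called the other cells. Because measured levels of these same cells chose the members, every comparison of members with other cells is a description, and no test was made on it.

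The study grew duct cells of the pig pancreas as three-dimensional organoids and asked how they relate to the ducts of the organ. PPDO lines came from pigs of German landrace background, in the study's terms a late postnatal and an adult pig, and they were sequenced at different passages, both past those the study calls early, when it describes most cells as having left the initial ductal state. Passage and age cannot be assigned to PPDO 1 or 2 from the labels. Both were kept in Cultrex matrix and in the same complete medium with WNT3a, R-spondin1 and noggin (given as L-WRN supplement), EGF, FGF10, gastrin, prostaglandin E2, nicotinamide, N-acetyl-L-cysteine, the TGF-beta receptor inhibitor A83-01 and the ROCK inhibitor Y-27632, and no treatment set the libraries apart. Primary pancreas came from late postnatal pigs of the same age, processed on different days. These were a wild-type pig, from which ducts were picked by hand, and an INS-eGFP pig, whose beta cells carry eGFP under the pig insulin promoter and from which DBA-binding, eGFP-positive and unselected live cells were pooled. Primary pancreas 1 and 2 follow the numbers of the titles, and it was taken that these are the first and second pancreas of the methods. Each library is 1 culture or 1 animal, so a pair of libraries is all the replication there is.

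The score genes do not belong to a single textbook pathway. GPNMB is a glycoprotein of lysosomes and melanosomes, known from macrophages and melanocytes. MMP3 (stromelysin-1) is a secreted protease that cuts matrix proteins and activates other proteases, and MRC2 (Endo180) is a surface receptor that takes up collagen. PTPRZ1 is a receptor tyrosine phosphatase known from glial cells, BBOX1 makes carnitine, which carries fatty acids into mitochondria, and PRR16 is a proline-rich protein linked to cell size. Squamous (stratified) epithelia, such as epidermis, hold dividing basal cells with KRT5 and TP63 beneath layers that stop dividing and build a lipid and protein barrier. A normal duct of the pancreas is a simple epithelium of a single layer, which is the reason the lists below include basal and squamous genes beside duct genes.

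PPDO 1 and 2 had 9853 and 8071 barcodes with a median of 35310 and 35127 UMIs, and primary pancreas 1 and 2 had 6999 and 7657 barcodes with a median of 8592 and 7402 UMIs. Between 10 and 23 barcodes were shared by any pair of libraries, 23 of them between PPDO 1 and 2. Members were deeper than the other cells, with a median of 45077 against 31947 UMIs in PPDO 1 and 44153 against 32857 UMIs in PPDO 2. They also had more detected features (7249 against 6149, and 6982 against 6179.5) and a median mitochondrial share of 0.459% against 0.382% and 0.434% against 0.379%. A Scrublet doublet score over 0.25 was found for 0.90% of members and 1.36% of other cells in PPDO 1, and for 1.45% and 1.19% in PPDO 2, and these cells were not removed. When every cell was first thinned to 10000 UMIs, the highest 15% were 1254 and 1074 cells, of which 85% and 83.2% were members, and their median depth before thinning was still 45338 and 43492 UMIs. Depth therefore moved with membership, and its part in the results was not tested beyond the values given with them. Free RNA in the droplets was not subtracted here.

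The score was a gradient, with no gap at the limit that defined the members. The limit lay at a mean log level of 1.08 in PPDO 1 and 0.877 in PPDO 2, and the highest cells reached 2.21 and 2.22. The median was 1.27 in members and 0.494 in other cells of PPDO 1, and 1.06 and 0.418 in PPDO 2. Within 0.05 of the limit lay 438 and 419 cells. The 444 cells of PPDO 1 just inside had a median score of 1.13 and the 444 just outside 1.03, and in PPDO 2 the 367 cells on either side had 0.926 and 0.839. GPNMB was at 139 CPM just inside and 86.9 CPM just outside in PPDO 1, and at 82.8 and 50.7 CPM in PPDO 2, where CPM stands for UMIs of the gene in 1000000 UMIs of the summed cells. Members are thus the upper end of a range and were not treated as a separate cell type. All 6 genes were found in 55.4% and 35.5% of members and in 6.25% and 2.23% of other cells, and after thinning to 10000 UMIs in 8.98% and 4.04% of members and 0.298% and 0% of other cells.

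Each score gene was several-fold more abundant in members, which the choice of cells fixed. GPNMB was at 223 against 33.1 CPM in PPDO 1 and 144 against 24.1 CPM in PPDO 2, a fold of 6.58 and 5.77. MMP3 was at 2681 against 617 CPM in PPDO 1 and 2250.0 against 565 CPM in PPDO 2, a fold of 4.34 and 3.98. Both genes were thus on the same side by a similar factor in both libraries. BBOX1 was at 75.6 against 20.1 CPM in PPDO 1 and 61.2 against 12.6 CPM in PPDO 2. PTPRZ1 was at 520.4 against 159 CPM in PPDO 1 and 440.0 against 141 CPM in PPDO 2. MRC2 was at 64.2 against 26.1 CPM in PPDO 1 and 75 against 25.1 CPM in PPDO 2. For these 3 genes the members of both libraries exceeded the other cells of both. PRR16 was the gene on which the libraries differed most, at 286 against 97.2 CPM in PPDO 1 and 139 against 24.8 CPM in PPDO 2. A UMI of MMP3 was found in 99.8% and 97.7% of members and in 81.6% and 83.4% of other cells, and after thinning to 10000 UMIs in 99.2% and 96.7% against 69.3% and 72.7%. GPNMB was found in 88.3% and 78.1% of members and 42.1% and 35.4% of other cells, and after thinning in 66.8% and 50.7% against 21% and 16.1%. Unthinned shares follow depth as well as expression, and free RNA adds to them, so a share of cells with a UMI is not a share of cells expressing the gene. The cluster lowest in MMP3 (cluster 3 below) still had 239 and 433 CPM of it, a level that includes any free RNA. The cluster with the least PTPRZ1 in PPDO 1 and 2 that had the depth of the rest (cluster 7 below, median 37146 and 30628.5 UMIs) was at 19.4 and 11.7 CPM, a level that includes any free RNA.

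**Figure D1:**
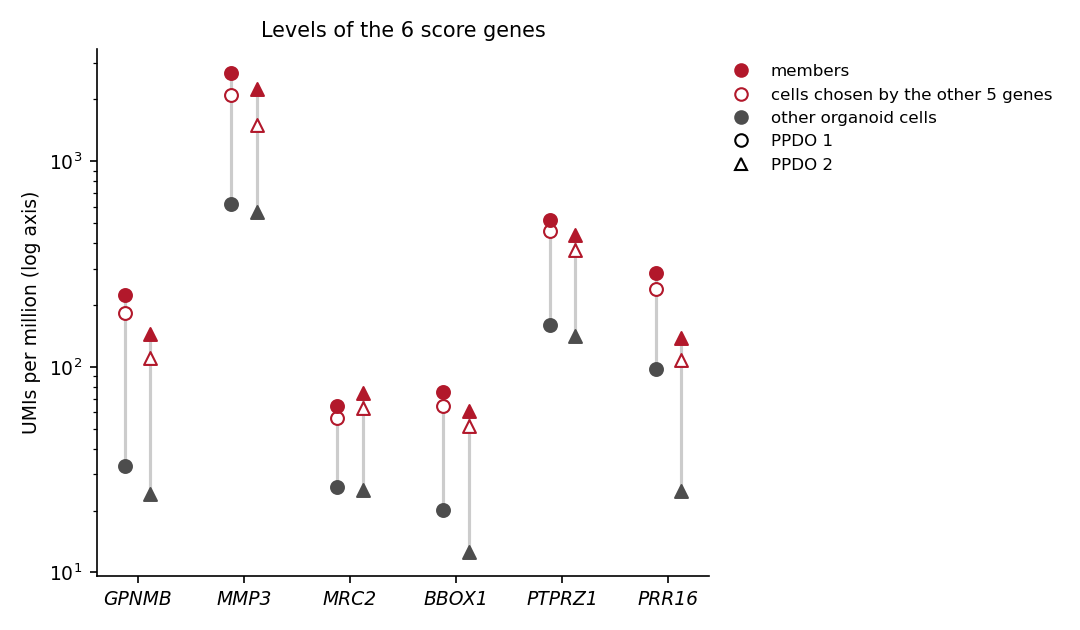
CPM (log axis) of the 6 score genes in the summed members (red) and other organoid cells (grey) of PPDO 1 (circles) and PPDO 2 (triangles). Members lie above other cells for each gene in both libraries, as the rule requires, from 1.27 on the log2 scale for MRC2 in PPDO 1 to 2.72 for GPNMB in PPDO 1.

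To read each gene in cells it had not chosen, the score was rebuilt from the other 5 genes and the highest 15% of each library were taken again. The gene left out remained higher in these cells in every case. GPNMB differed by 2.03 and 1.74 on the log2 scale, PRR16 by 1.13 and 1.72, and BBOX1 by 1.45 and 1.72. MMP3 differed by 1.46 and 1.02, PTPRZ1 by 1.37 and 1.23 and MRC2 by 0.98 and 1.15. Of the cells chosen in this way, 73.6% to 93.4% were members. The 6 genes were put together with results of these cells known and most of the cells are the same, so these ratios describe the choice and are no separate evidence that the genes vary together.

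Over the whole transcriptome, 10152 genes had at least 5 CPM in members or in other cells of both libraries. Of these, 97 genes (0.955%) were at least 2-fold higher in members in both libraries and 128 (1.26%) at least 2-fold lower, on log2 ratios with 1 CPM added. Without the score genes, 91 higher genes were left. The median gene differed by -0.03 on the log2 scale, and 37.2% of genes were above 0 and 48.5% below 0 in both libraries. The pattern found in one culture was then read in the other. The same score chose the members of both libraries, and members were deeper in both. A part of the agreement is thus built in, and the shares below describe it only. Of 140 genes 2-fold higher in PPDO 1, 91 (65%) were also 2-fold higher in PPDO 2, where 1.01% of all genes were. Of 236 genes 2-fold lower in PPDO 1, 128 (54.2%) were 2-fold lower in PPDO 2, against 1.46% of all genes. In the reverse direction 89.2% of 102 higher and 86.5% of 148 lower genes of PPDO 2 were 2-fold different in PPDO 1, and no gene of these lists had the opposite sign.

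These counts moved with the depth of the other cells. When the members were set against 2496 and 2155 other cells of like depth (median 43877 and 43824 UMIs, a comparison chosen after seeing the data), 53 genes were 2-fold higher, all of them among the 97, and 197 were 2-fold lower, 102 of them among the 128. From PPDO 1 alone, with the level filter applied to that library only and the score genes kept, the counts were 157 and 258.

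ELF5, GATA3 and NRARP were among the 15 genes furthest above the other cells and act on transcription or on Notch, an order chosen after their values were seen. ELF5, an ETS factor known from mammary and other gland epithelia, was at 66.1 against 15 CPM in PPDO 1 and 69 against 18.3 CPM in PPDO 2. GATA3, a factor of epidermis and mammary ducts, was at 45.5 against 12.1 CPM in PPDO 1 and 28.7 against 7.07 CPM in PPDO 2. For both genes both member sums exceeded both sums of other cells. NRARP, a target and feedback inhibitor of Notch, was at 48.9 against 12.1 CPM in PPDO 1 and 29.4 against 8.12 CPM in PPDO 2. The log2 ratios were 2.06 and 1.86 for ELF5, 1.82 and 1.88 for GATA3 and 1.93 and 1.74 for NRARP in PPDO 1 and 2. Against the other cells of like depth the mean ratios over both libraries were 1.68, 1.72 and 1.53.

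Of the 15 highest genes, 5 that act on lipids and the retinoic acid carrier CRABP2 are given side by side, an order chosen after their values were seen, with no list or count behind it. ABCA12, which loads lipids into the granules that keratinocytes secrete, was at 89.5 against 27.9 CPM in PPDO 1 and 108 against 34.6 CPM in PPDO 2. CYP4F22, which hydroxylates very long fatty acids for acylceramides, was at 38.5 against 9.35 CPM in PPDO 1 and 47.2 against 13.6 CPM in PPDO 2. PLA2G4E, a cytosolic phospholipase, was at 31.3 against 6.14 CPM in PPDO 1 and 35.9 against 9.6 CPM in PPDO 2. In these 3 genes the members of both libraries were higher than the other cells of either library, which the choice of genes by their ratio fixed in part. THEM5, a thioesterase of fatty acyl-CoA, was at 22.9 against 4.86 CPM in PPDO 1 and 43 against 12.7 CPM in PPDO 2. AIG1, a hydrolase of fatty acid esters, was at 111 against 38.3 CPM in PPDO 1 and 79.4 against 28 CPM in PPDO 2. CRABP2, which carries retinoic acid into the nucleus, was at 451 against 92.1 CPM in PPDO 1 and 427 against 152 CPM in PPDO 2. The log2 ratios of the 6 genes ran from 1.47 for AIG1 in PPDO 2 to 2.28 for CRABP2 in PPDO 1.

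KRTDAP, KRT23 and LYPD3, likewise placed together after their values were seen, are known from keratinocytes. KRTDAP, a secreted protein of differentiating keratinocytes, was at 919.6 against 208 CPM in PPDO 1 and 1967 against 594 CPM in PPDO 2. KRT23, an acidic keratin, was at 324 against 68.9 CPM in PPDO 1 and 409 against 144 CPM in PPDO 2. LYPD3 (C4.4A), a surface protein of suprabasal layers, was at 66.8 against 17.7 CPM in PPDO 1 and 108 against 37.6 CPM in PPDO 2. The libraries differed in level, with more KRTDAP in PPDO 2 than in PPDO 1 in either group, so members and other cells were set against each other within each library. The metallothioneins MT1A and MT3, which bind zinc and copper, were at 159 against 47.6 CPM in PPDO 1 and 398 against 118 CPM in PPDO 2 (MT1A) and 27.1 against 8.8 CPM in PPDO 1 and 21.7 against 6.65 CPM in PPDO 2 (MT3). TMEM154, a membrane protein, was at 232 against 66.3 CPM in PPDO 1 and 254 against 84.2 CPM in PPDO 2. Against other cells of like depth, the mean log2 ratios of the 15 highest genes still ran from 1.23 for AIG1 to 1.72 for GATA3.

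**Figure D2:**
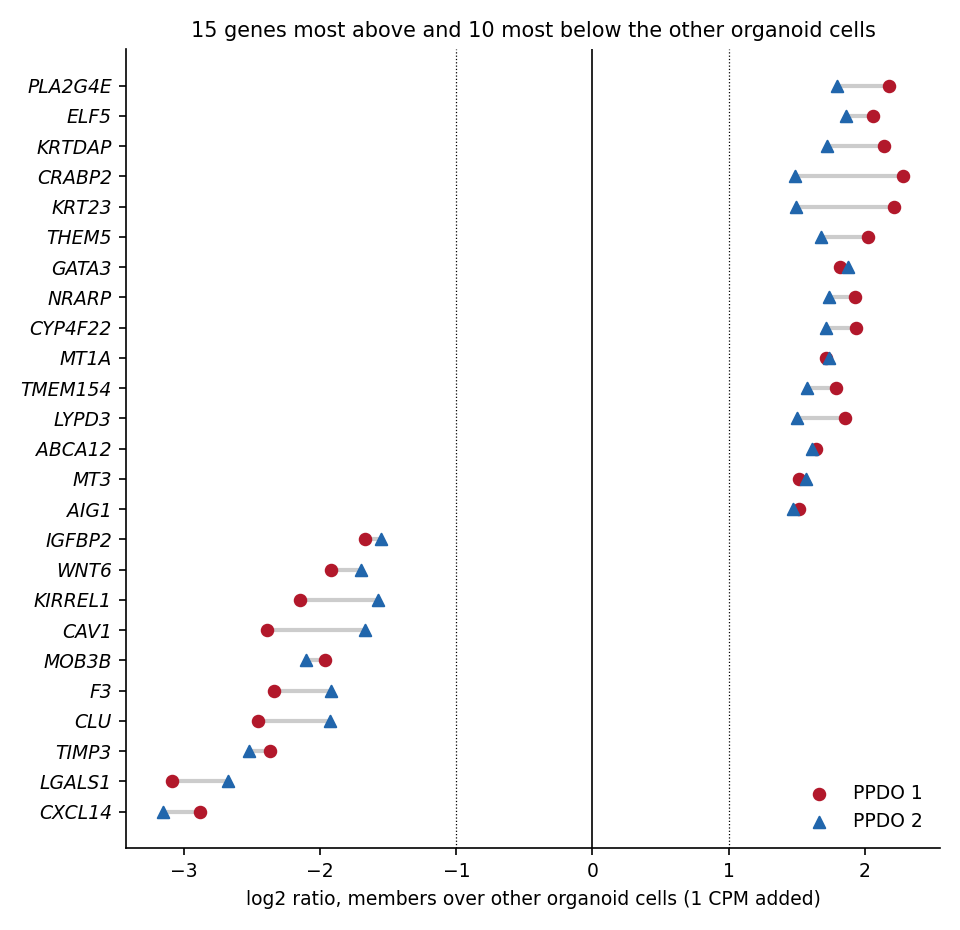
Log2 ratio of members over other organoid cells (1 CPM added) for the 15 genes furthest above and the 10 furthest below, in PPDO 1 (red circles) and PPDO 2 (blue triangles). For each gene both libraries fall on the same side of 0, which the selection required; CXCL14 lies lowest at -3.15 and the highest is CRABP2 at 2.28.

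Of the 10 genes furthest below the other cells, 5 that code for secreted proteins are given first, again an order chosen after their values were seen. CXCL14, a chemokine of epithelia, was at 31.8 against 241 CPM in PPDO 1 and 15.5 against 145 CPM in PPDO 2. TIMP3, an inhibitor of metalloproteases that is bound to the matrix, was at 18.7 against 100.5 CPM in PPDO 1 and 16.1 against 97.2 CPM in PPDO 2. WNT6, a WNT ligand, was at 5.92 against 25.2 CPM in PPDO 1 and 6.61 against 23.8 CPM in PPDO 2. CLU (clusterin), a secreted chaperone, was at 24.1 against 137 CPM in PPDO 1 and 18.2 against 72.1 CPM in PPDO 2. IGFBP2, which binds insulin-like growth factors, was at 113 against 363 CPM in PPDO 1 and 47.5 against 142 CPM in PPDO 2. For each of these 5 genes the members of both libraries lay under the other cells of both, which the choice of genes by their ratio fixed in part. F3, LGALS1, CAV1, KIRREL1 and MOB3B were the other 5 of the 10 lowest genes. F3 (tissue factor), which starts coagulation, was at 7.36 against 41.3 CPM in PPDO 1 and 9.18 against 37.5 CPM in PPDO 2. LGALS1 (galectin-1) was at 2.28 against 26.9 CPM in PPDO 1 and 8.45 against 59.5 CPM in PPDO 2. CAV1, the coat protein of caveolae, was at 5.03 against 30.7 CPM in PPDO 1 and 21.8 against 71.9 CPM in PPDO 2. KIRREL1, an adhesion protein, had log2 ratios of -2.15 and -1.58, and MOB3B, a kinase activator of the MOB family, -1.96 and -2.11. Against other cells of like depth the mean ratios of the 10 lowest genes ran from -2.82 for LGALS1 to -1.5 for IGFBP2.

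Squamous differentiation, with 5 genes, was the only list besides the score genes with more than 1 gene at least 2-fold higher in both libraries. Of 25 genes on it, 21 had a symbol in the files and 17 passed the level filter. Of these, 12 were higher and 3 lower in members in both libraries, beside 37.2% and 48.5% of all genes, with a median of 0.69 on the log2 scale against -0.03 over all genes. Of the 17, 4 passed the filter only through members (KRT1, DSG1, SBSN and TGM1) and 2 only through the other cells, which fixes their side in part. Of the 11 that passed in both groups, 8 were higher and 1 lower, with 3 at least 2-fold higher. In all, the 5 genes at least 2-fold higher, beside 0.955% of all genes, were KRTDAP, the calgranulins S100A8 and S100A12, the desmosomal cadherin DSG1 and the suprabasal gene SBSN. S100A8 was at 404 against 184 CPM in PPDO 1 and 1012 against 486 CPM in PPDO 2, although along the score its level in the lowest 5% of cells was above that of the members, as given below. S100A12 was at 1589 against 592 CPM in PPDO 1 and 3334 against 1348 CPM in PPDO 2. DSG1 was at 7.89 against 2.94 CPM in PPDO 1 and 19.3 against 6.99 CPM in PPDO 2. Against other cells of like depth only KRTDAP of the 5 kept a mean ratio above 1 (1.41); S100A12 was at 0.90, SBSN at 0.79, DSG1 at 0.75 and S100A8 at 0.65. The desmosomal cadherins DSC2 (1.08 and 0.94) and DSG3 (0.80 and 0.56), the keratin KRT10 (0.85 and 0.47) and the protease inhibitor SPINK5 (0.92 and 0.70) were above 0 by less. CNFN and IVL, of the last steps of cornification, were below 0 in the summed cells. CNFN (cornifelin) was at 2.23 against 9.66 CPM in PPDO 1 and 13.2 against 35.8 CPM in PPDO 2, and the envelope protein IVL (involucrin) had ratios of -0.29 and -0.51. These signs depended on the cells included. The mean ratio of CNFN turned to 0.689 with MMP3 left out of the score and to 0.0204 without the cells of clusters 6 and 8 described below, where IVL had -0.41 and 0.14. A UMI of IVL was found in 18.5% and 29.5% of members and 14.8% and 21.3% of other cells, and after thinning in 8.98% and 18.5% against 9.52% and 13.3%. The kallikrein KLK7, a protease that sheds cornified cells, had ratios of opposite sign in PPDO 1 and 2 (-0.49 and 0.47).

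Basal genes were on both sides. KRT5, the keratin of basal cells, was at 9698 against 4344 CPM in PPDO 1 and 11369 against 6767 CPM in PPDO 2. TP63, the transcription factor of basal cells, was at 566 against 551 CPM in PPDO 1 and 598 against 585 CPM in PPDO 2 and so differed by 0.04 and 0.03 on the log2 scale. PDPN (podoplanin) was at 4.4 against 20.7 CPM in PPDO 1 and 9.06 against 27.2 CPM in PPDO 2 and IGFBP6 at 28 against 67.4 CPM in PPDO 1 and 54.7 against 215 CPM in PPDO 2. Of 7 basal genes over the level filter, 3 were higher and 4 lower in both libraries, shares near those of all genes (37.2% and 48.5%), with 2 at least 2-fold lower and a median of -0.16. PDPN passed the filter only through the other cells, which fixes its side in part. Of the 6 basal genes that passed in both groups, 3 were higher and 3 lower, with 1 at least 2-fold lower. Members therefore had TP63 like the other cells, more KRT5, and less PDPN and IGFBP6. Duct genes stayed near the level of the other cells as a list, with a median of -0.05 over 10 genes. In it SPP1 (osteopontin) was at 6.37 against 23.6 CPM in PPDO 1 and 8.31 against 22.8 CPM in PPDO 2 and WFDC2 at 4.6 against 27.6 CPM in PPDO 1 and 2.93 against 10.3 CPM in PPDO 2, both at least 2-fold lower, while E-cadherin (CDH1) had ratios of 0.76 and 0.70. WFDC2 passed the level filter only through the other cells, which fixes its side in part.

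Matrix proteases and their inhibitors besides MMP3 were found on both sides. Of the 9 proteases and inhibitors over the level filter, 3 were higher and 5 lower in both libraries, none was 2-fold higher, and the median was -0.16. MMP19, among the lower, passed the filter only through the other cells. The urokinase PLAU had log2 ratios of 0.66 and 0.54, the membrane-bound protease MMP14 -0.09 and -0.23 and the protease inhibitor SERPINE2 0.29 and 0.14. MMP13 (collagenase-3) and MMP28 (epilysin) were under the level filter, at 6.5 and 4.65 CPM (MMP13) and 4.99 and 6.41 CPM (MMP28) in members. MMP11 (stromelysin-3) had -1.0 and -0.74. TIMP1, a secreted inhibitor of metalloproteases, was at 585 against 397 CPM in PPDO 1 and 654 against 441 CPM in PPDO 2, on the opposite side to TIMP3. Of 13 collagen and matrix receptors besides MRC2, 4 were higher and 6 lower with none 2-fold different and a median of -0.08; SDC1 (syndecan-1) had 0.95 and 0.74 and the laminin receptor subunit ITGA6 0.62 and 0.22. Of 18 matrix proteins, 14 were lower and 3 higher in both libraries, beside 48.5% and 37.2% of all genes, with a median of -0.23. THBS1 (thrombospondin-1) was at 1.82 against 10.1 CPM in PPDO 1 and 3.74 against 11 CPM in PPDO 2, and LAMA3, a chain of laminin-332, had -0.82 and -0.99. TNC and THBS1 passed the level filter only through the other cells, which fixes their side in part. Of the 16 matrix proteins that passed in both groups, 12 were lower and 3 higher, with none 2-fold lower.

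Genes known to act with GPNMB, BBOX1 and PTPRZ1 were read as lists of their own. GPNMB is a target of the MITF and TFE factors that switch on lysosome genes. Of 23 such lysosome genes over the level filter, 10 were higher and 8 lower in both libraries, beside 37.2% and 48.5% of all genes, with none 2-fold different and a median of 0.02. MITF itself had log2 ratios of 0.35 and 0.27, the cholesterol exporter NPC1 0.49 and 0.56 and its partner NPC2 -0.93 and -0.66. Of 11 carnitine genes besides BBOX1, 7 were higher and 2 lower, beside the same shares, with a median of 0.28. The carnitine acetyltransferase CRAT had 0.98 and 0.74 and the mitochondrial carnitine carrier SLC25A20 0.54 and 0.41. TMLHE, the first enzyme of carnitine synthesis, had -0.18 and -0.26. Of the ligands of PTPRZ1, MDK (midkine) was at 8.12 against 24.2 CPM in PPDO 1 and 5.8 against 14.5 CPM in PPDO 2, and PTN (pleiotrophin) was at 0.182 against 0.295 CPM in PPDO 1 and 0.121 against 0.31 CPM in PPDO 2.

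WNT receptors and targets were lower as a list, with 8 of 10 genes over the level filter lower and 2 higher in both libraries, beside 48.5% and 37.2% of all genes, and a median of -0.56. LGR6, a receptor for R-spondin, was at 10.3 against 86.4 CPM in PPDO 1 and 33 against 97 CPM in PPDO 2. LEF1, a transcription factor of the pathway and a target of it, was at 13.7 against 38.6 CPM in PPDO 1 and 10.3 against 30.1 CPM in PPDO 2. APCDD1, an inhibitor and target of WNT, was at 6.05 against 18.6 CPM in PPDO 1 and 7.95 against 20.6 CPM in PPDO 2. These 3 genes were at least 2-fold lower in both libraries. The related receptors went both ways, with -0.68 and -0.85 for LGR5 and 0.37 and 0.49 for LGR4, and the feedback gene AXIN2 had -0.76 and -0.39. The medium of both cultures held WNT3a and R-spondin1, what reached each cell was not measured, and a cause of the lower levels was not tested.

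Cell cycle genes were lower. All 11 mitosis genes over the level filter were below 0 in both libraries, with a median of -0.90, and so were all 12 DNA replication genes, with a median of -0.65, beside 48.5% of all genes. For 4 of the mitosis and 6 of the DNA replication genes this side was fixed in part, since they passed the filter only through the other cells, and the 7 and 6 genes that passed in both groups were lower too. TOP2A, the topoisomerase that untangles chromosomes, was at 6.95 against 26 CPM in PPDO 1 and 15.7 against 41.4 CPM in PPDO 2. CENPF, a kinetochore protein, was at 9.05 against 27 CPM in PPDO 1 and 16.7 against 37.7 CPM in PPDO 2. The median cell of either group had little of this RNA, at 0.258 UMIs per 10000 of the mitosis list in members and 0.324 in other cells of PPDO 1, and 0.471 and 0.502 in PPDO 2. Against other cells of like depth the mitosis median was -1.41. Of 11 genes of growth arrest, CDKN2B (p15), an inhibitor of CDK4 and CDK6, was 2-fold higher at 83.4 against 25.4 CPM in PPDO 1 and 84.1 against 29.9 CPM in PPDO 2, while GDF15 was 2-fold lower with -1.04 and -1.03 and the list had a median of -0.11. GDF15 passed the level filter only through the other cells, which fixes its side in part.

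Most hypoxia genes were lower, while the YAP and TGF-beta lists depended on how they were summed. Of all genes 48.5% were lower and 37.2% higher in both libraries, against which the counts that follow are to be read. Of 12 hypoxia genes, 11 were lower in both libraries with a median of -0.74, and the summed list was at 1476 against 2752 CPM in PPDO 1 and 1493 against 2366 CPM in PPDO 2. STC2 passed the level filter only through the other cells, and of the 11 hypoxia genes that passed in both groups 10 were lower. ADM (adrenomedullin) was at 32.6 against 189 CPM in PPDO 1 and 67 against 185 CPM in PPDO 2, and BNIP3, a mitochondrial receptor for autophagy, at 498 against 1112 CPM in PPDO 1 and 322 against 649 CPM in PPDO 2. These 2 ratios were smaller against other cells of like depth, at -1.18 for ADM and -0.51 for BNIP3. Glycolysis genes had a median of -0.12, with 11 of 14 lower in both libraries and -0.77 and -0.75 for GAPDH. Of 10 YAP genes, 8 were lower and 2 higher, with a median of -0.60, but the summed list was at 1239 against 1295 CPM and 1197 against 1206 CPM, and the median cell was slightly higher in members, at 11.8 against 11.7 and 11.3 against 11.2 UMIs per 10000. CCN2 (CTGF) was at 2.61 against 14.1 CPM in PPDO 1 and 7.34 against 19.8 CPM in PPDO 2 and CCN1 (CYR61) at 10.9 against 23.3 CPM in PPDO 1 and 11.4 against 31.5 CPM in PPDO 2, whereas YAP1 itself had 0.42 and 0.50 and its partner WWTR1 (TAZ) 0.49 and 0.42. YAP1 and WWTR1 were the 2 higher genes of the list. With AMOTL1 and TEAD1, which had mean ratios of -0.09 and -0.04, they carried most of its sum, and CCN1 and CCN2 little of it. AJUBA and AMOTL2 had mean ratios of -1.12 and -0.76. CCN2 and TEAD4 passed the level filter only through the other cells, which fixes their side in part. Of the 8 YAP genes that passed in both groups, 6 were lower and 2 higher. Of 9 TGF-beta response genes, 6 were lower and 3 higher with a median of -0.25, and the summed list was at 829.8 against 828 CPM in PPDO 1 and 764 against 805 CPM in PPDO 2. TGFB2, the ligand, was the only gene of this list that was 2-fold lower (-1.08 and -1.13). It passed the level filter only through the other cells, which fixes its side in part. Of the 8 TGF-beta genes that passed in both groups, 5 were lower and 3 higher. The EGF and FGF list had a median of 0.05 with none of 11 genes 2-fold different, and the immediate early genes, which rise when tissue is dissociated, had 0.03 over 14 genes. Of 4 mesenchymal genes over the level filter, SNAI2 (Slug) was at 6.09 against 17.3 CPM in PPDO 1 and 8.8 against 20.9 CPM in PPDO 2, and VIM (vimentin) had 1.39 and 0.81.

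Defining markers of leukocytes and fibroblasts were at or near 0 in members, while lists of macrophages, melanocytes and Schwann cells each held genes that these epithelial cells express. Of 11 macrophage markers, the members' summed level was 20.8 and 22.7 CPM against 30.4 and 24.1 CPM in other cells, CD14 and CD68 passed the level filter, and 2 and 3 markers were at 0 in members. Of the sum, CD68, a lysosomal protein, made up 15.1 and 16.3 CPM, beside 0.625 and 0.158 CPM in primary ductal-like cells, from which members differed by 5.6 ± 0.65 on the log2 scale (SE, n = 2 libraries per group, edgeR quasi-likelihood test described below, Benjamini-Hochberg adjusted p = 0.00359). PTPRC (CD45), which all leukocytes carry, was at 0.298 and 0.222 CPM in members. The 7 melanocyte markers summed to 137 and 229 CPM in members and 131 and 198 CPM in other cells, and 4 passed the level filter. KIT (58.3 and 149 CPM in members) and MITF carried most of it, while the pigment genes PMEL (6.86 and 7.48 CPM), DCT (1.72 and 2.1 CPM), MLANA (0.992 and 0.647 CPM) and TYR (0.0331 and 0.101 CPM) were low. In the Schwann list ERBB3, a receptor of epithelia as well, was at 3467 and 3342 CPM of a sum of 3552 and 3433 CPM. The 9 fibroblast markers summed to 4.76 and 5.3 CPM in members and 6.05 and 5.9 CPM in other cells. The median member had 0 UMIs of the fibroblast list per 10000, and of the macrophage list 0.14 in PPDO 1 and 0 in PPDO 2. The endothelial, acinar and endocrine lists summed to between 7.99 and 23.6 CPM in members.

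Genes that had no part in the score changed along it in different shapes. The cells of each library were ordered by the score and cut into 20 bins of 5% each. GATA3 was high at the upper end, with 10.0, 8.67 and 61.3 CPM in PPDO 1 and 3.35, 6.69 and 47.5 CPM in PPDO 2 in the lowest, the 10th and the highest bin. ELF5 had 18.3, 7.72 and 87.9 CPM in PPDO 1 and 19.1, 19 and 101 CPM in PPDO 2 in the same bins. KRT5 was higher in each of these bins than in the one before, with 1312, 4348 and 10772 CPM in PPDO 1 and 3136, 7173 and 12775 CPM in PPDO 2. LGR6 was low at both ends, with 18.3, 123 and 2.74 CPM in PPDO 1 and 25.1, 112 and 13.5 CPM in PPDO 2, and its highest bin was the 8th in PPDO 1 and the 11th in PPDO 2. TOP2A had the same humped shape, with 8.87, 33.1 and 1.25 CPM in PPDO 1 and 12.3, 42.3 and 4.72 CPM in PPDO 2. Some squamous genes were high at the low end of the score: S100A8 had 628, 15.6 and 414 CPM in PPDO 1 and 1186, 449 and 1337 CPM in PPDO 2, IVL 166, 22.9 and 34.9 CPM in PPDO 1 and 298, 162 and 97.4 CPM in PPDO 2 and KLK7 112, 3.44 and 15.6 CPM in PPDO 1 and 249, 95.4 and 180.1 CPM in PPDO 2. CNFN, IVL and KLK7 were highest in the lowest bin in both libraries. TIMP3 fell, with 367, 55.4 and 11.5 CPM in PPDO 1 and 304, 82.1 and 8.43 CPM in PPDO 2, and of the 3 bins SPP1 was high in the lowest only, with 143, 7.14 and 5.05 CPM in PPDO 1 and 83.4, 8.22 and 11 CPM in PPDO 2. Both ends of the score thus had less LGR6 and TOP2A than the 10th bin, and they differed from each other in GATA3, ELF5, KRT5, TIMP3 and SPP1.

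**Figure D3:**
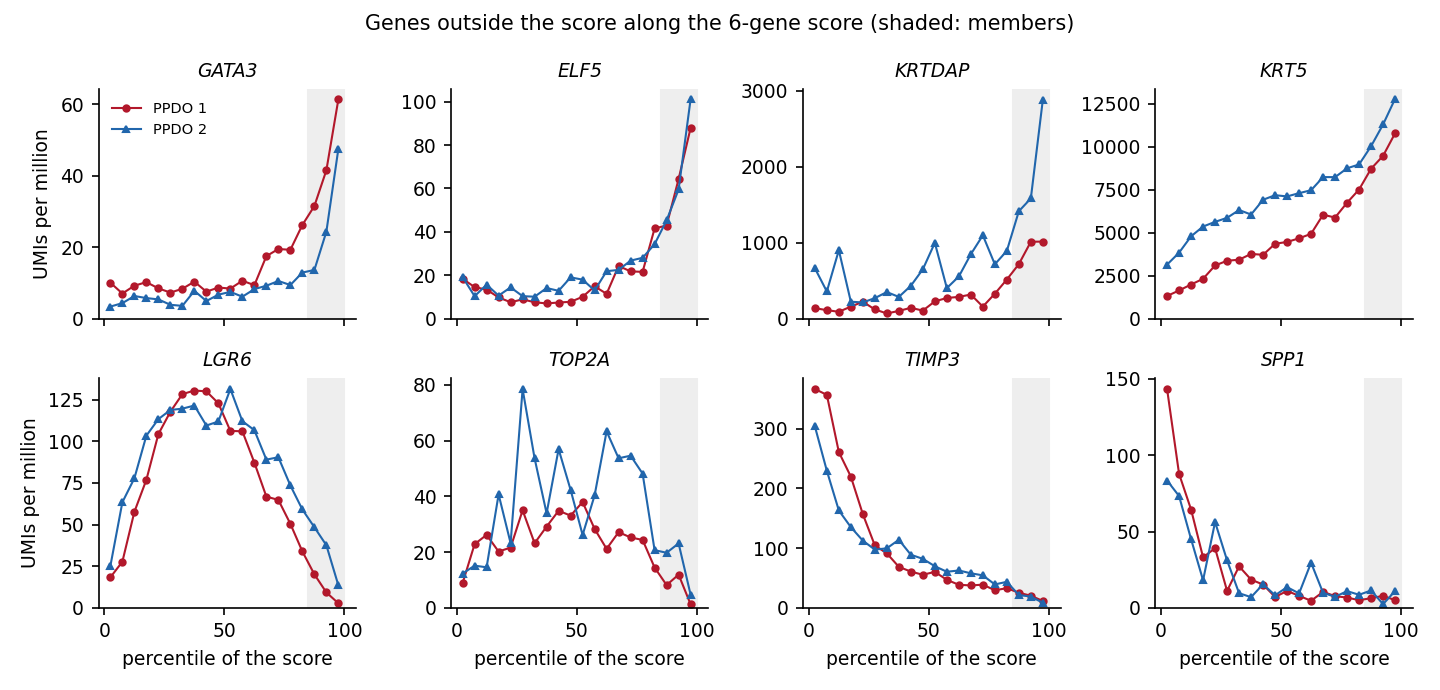
CPM of 8 genes that were not in the score, over 20 bins of cells ordered by the score (x axis, percentile), for PPDO 1 (red circles) and PPDO 2 (blue triangles), with the members' bins shaded. GATA3, ELF5 and KRTDAP reach their highest level at the upper end, LGR6 and TOP2A between the ends, and TIMP3 and SPP1 at the lower end; these are descriptions of the cells the score ordered.

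When the cells were clustered without the 6 genes, members were concentrated but not confined to a single cluster. Cluster 2, led by MMP3, GPNMB, PIK3C2G and MRC2, held 72.4% of members in PPDO 1 and 59.1% in PPDO 2. It held 19.6% and 15.4% of all kept cells, and 55.4% and 57.6% of its cells were members. The score genes were not used to form it, but they were put together with results of these cells known. Their lead in cluster 2 is therefore no separate evidence. Cluster 6, led by PLXDC2, PLA2G4E, SPINK5, DSG1 and KLK7, held 10.4% and 13.7% of members and 4.27% and 5.96% of kept cells. The large cluster 0, led by CXCL14, HMCN1 and LGR6, held 5.7% and 8.81% of members although it made up 29.7% and 28.3% of kept cells. Cluster 1, led by IGFBP6, PDPN and TIMP3 among others, held 7.2% and 9.72%. Cluster 3, led by ADM and TIMP3, held 0.15% and 0.817%, and cluster 7, led by SPP1, CFD and WFDC2, 0.30% and 0.0908%. Cluster 8, of 36 and 93 cells led by S100A8, S100A12 and SPRP, held none. Cluster 4, led by CENPF and TOP2A, held 2.1% and 3.91% of members beside 5.9% and 6.47% of kept cells. Cluster 5, led by DTL and ZNF367, held 1.73% and 3.81% of members beside 4.63% and 5.56% of kept cells.

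**Figure D4:**
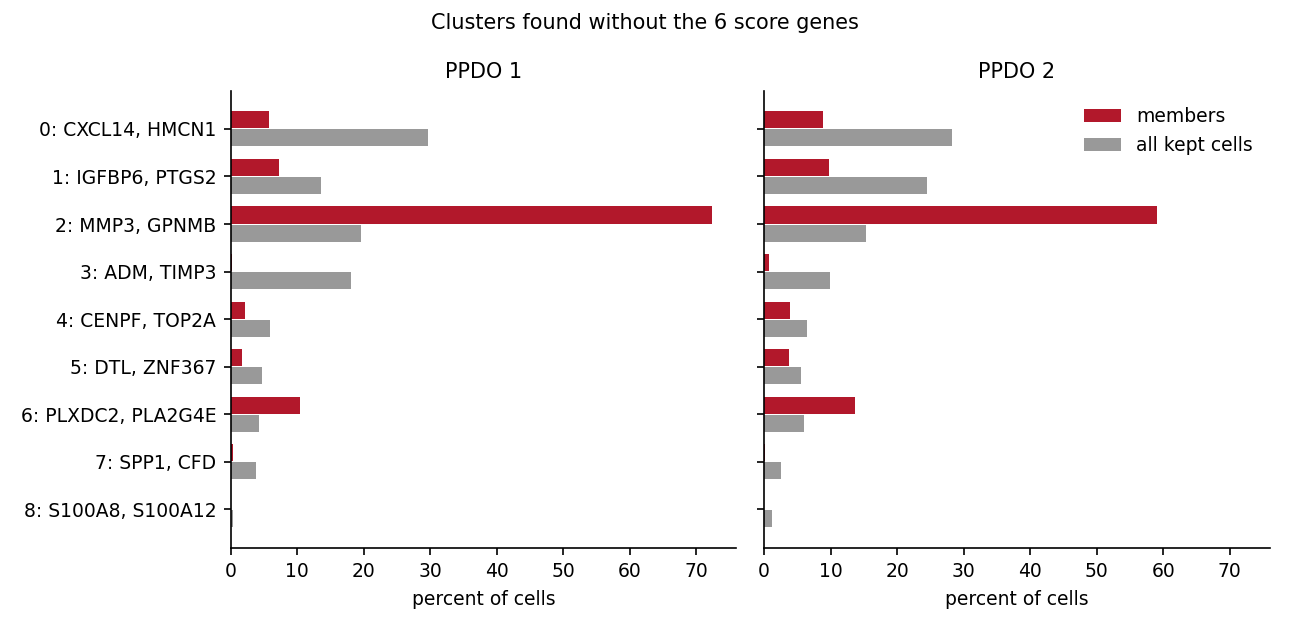
Share of members (red) and of all kept cells (grey) of PPDO 1 and PPDO 2, in percent, in each cluster found without the 6 score genes, named by leading genes. Cluster 2 holds 72.4% and 59.1% of members against 19.6% and 15.4% of kept cells, and cluster 6 10.4% and 13.7% against 4.27% and 5.96%.

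Within cluster 2 the members stood less far from the rest than from all other cells. For the 15 highest genes the median log2 ratio of its members over its other cells was 0.79 in PPDO 1 and 0.65 in PPDO 2, beside 1.93 and 1.68 over all other cells. It ran from 0.15 for MT1A in PPDO 1 to 1.53 for KRTDAP in PPDO 2, and none of the 15 was 2-fold higher in both libraries. ELF5 was at 57 and 61.9 CPM in members of cluster 2 and 30.9 and 37.9 CPM in its other cells, NRARP at 49.9 and 27.9 CPM and 37.7 and 19.8 CPM, and MT1A at 141 and 384 CPM and 127 and 291 CPM. For the 10 lowest genes the medians were -0.87 and -0.80, beside -2.35 and -1.92. The other cells of cluster 2 thus shared much of the pattern.

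Members of cluster 6 differed from those of cluster 2 in squamous genes by a wide margin. KRTDAP was at 286 and 854 CPM in cluster 2 members of PPDO 1 and 2 and at 5989 and 9922 CPM in cluster 6 members. S100A12 was at 530.3 and 1671 CPM and 10140.4 and 15767 CPM. The cells of cluster 6 that were not members had levels of the same order, with 12396 and 16959 CPM of S100A12, 4949.6 and 9157 CPM of KRTDAP and 1400.0 and 1956 CPM of KRT23, the last beside 1339 and 1548 CPM in its members. For these 3 genes the level was not particular to the members of the cluster. Other squamous genes were lower in its members, with 221 and 343 CPM against 855 and 1477 CPM for IVL, 14.7 and 77.5 CPM against 238 and 586 CPM for CNFN and 119 and 681 CPM against 628 and 1589.8 CPM for KLK7. KRT1, a keratin of suprabasal layers, was at 155 and 113 CPM in cluster 6 members and at 0.0903 and 0.505 CPM in cluster 2 members, while the other cells of cluster 6 had 9.35 and 129 CPM. A UMI of KRT1 was found in 0.675% of all members of PPDO 1 and 2.09% of PPDO 2, so a few cells carried its level. The score genes divided as well: GPNMB was at 220.0 and 138 CPM in cluster 2 and 363 and 316 CPM in cluster 6, MRC2 at 69 and 85.7 CPM and 45.7 and 52.5 CPM, and MMP3 at 2813 and 2365 CPM and 2177 and 1674 CPM. GPNMB was thus higher and MRC2 and MMP3 lower in the squamous cluster in both libraries. LGR6 was at 69.8 and 129.9 CPM in the members of cluster 0, 7.7 and 24.4 CPM in cluster 2 and 0.982 and 2.81 CPM in cluster 6. TIMP3 was at 114 and 70.7 CPM in the members of cluster 1 and 13.2 and 11 CPM in cluster 2, so members differed among themselves by cluster.

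Some squamous genes were not carried by cluster 6 alone, while others nearly were. In PPDO 1 the members in cluster 6 held 42680 of the 55599 UMIs of KRTDAP in all members. They held 379 of 477 UMIs of DSG1 and 1107 of 1112 of KRT1. With the cells of clusters 6 and 8 left out of members and other cells, a choice made after seeing the data, 1194 and 950 members and 7276 and 5857 other cells remained. Then 84 genes were 2-fold higher, 78 of them among the 97, and 103 were 2-fold lower, 99 of them among the 128. KRTDAP was at 242 against 32.9 CPM in PPDO 1 and 628 against 50.9 CPM in PPDO 2. In the full set it was at 919.6 against 208 CPM and 1967 against 594 CPM, so both groups fell. The log2 ratios of KRTDAP were then 2.84 and 3.6, above the 2.14 and 1.72 of the full set. KRT23 had 3.03 and 2.39, S100A12 2.27 and 2.14, CRABP2 2.54 and 2.1 and GATA3 1.83 and 1.93. DSG1 and SBSN fell under the level filter, with 0.70 and 1.15 and 0.92 and 1.46. KRT1 had -0.04 and 0.16.

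In the primary pancreas, which the rule had not used, no class of cells had the 6 genes together at the level of members. GPNMB was at 22 and 62.4 CPM in immune-like cells of primary pancreas 1 and 2, and 10.8 and 18.8 CPM in ductal-like cells. Stellate markers passed in 2 clusters with different leading genes, which are given apart. Primary cluster 12, led by DCN and LUM, is called stellate-like below and had 313 cells in primary pancreas 1 and 7 in primary pancreas 2. Primary cluster 5, of 439 and 41 cells, was led by smooth muscle genes such as MYH11, TAGLN and CNN1 and is left unnamed. GPNMB was at 38.3 CPM in the stellate-like cells of primary pancreas 1 and at 9.47 and 16.4 CPM in primary cluster 5. MRC2 was at 157 CPM in the stellate-like cells of primary pancreas 1, with 21 UMIs in the 7 cells of primary pancreas 2, and at 8.64 and 5.48 CPM in primary cluster 5. It was at 24 and 52.4 CPM in immune-like cells, beside 64.2 and 75 CPM in members, and at 1.32 and 0.591 CPM in ductal-like cells. PRR16 was at 41.4 and 25.2 CPM in endocrine-like cells and at 30.2 CPM in the stellate-like cells of primary pancreas 1. PTPRZ1 was at 281 CPM in the 345 schwann-like cells of primary pancreas 1, and primary pancreas 2 had 1 such cell. MMP3 had 5 and 6 UMIs in all ductal-like cells and 11 in the schwann-like cells of primary pancreas 1, and BBOX1 had 2 and 13 UMIs in ductal-like cells. The classes of the organ thus each had some of the genes: GPNMB with MRC2 in stellate-like cells of primary pancreas 1 and in immune-like cells, PTPRZ1 in schwann-like cells, and PRR16 in endocrine-like cells and in the stellate-like cells of primary pancreas 1. A UMI of GPNMB was found in 1.17% and 3.82% of acinar-like cells and 12.7% and 24.1% of ductal-like cells, at a median depth of 7329 and 4309 UMIs in acinar-like and 17871 and 20558.5 in ductal-like cells.

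**Figure D5:**
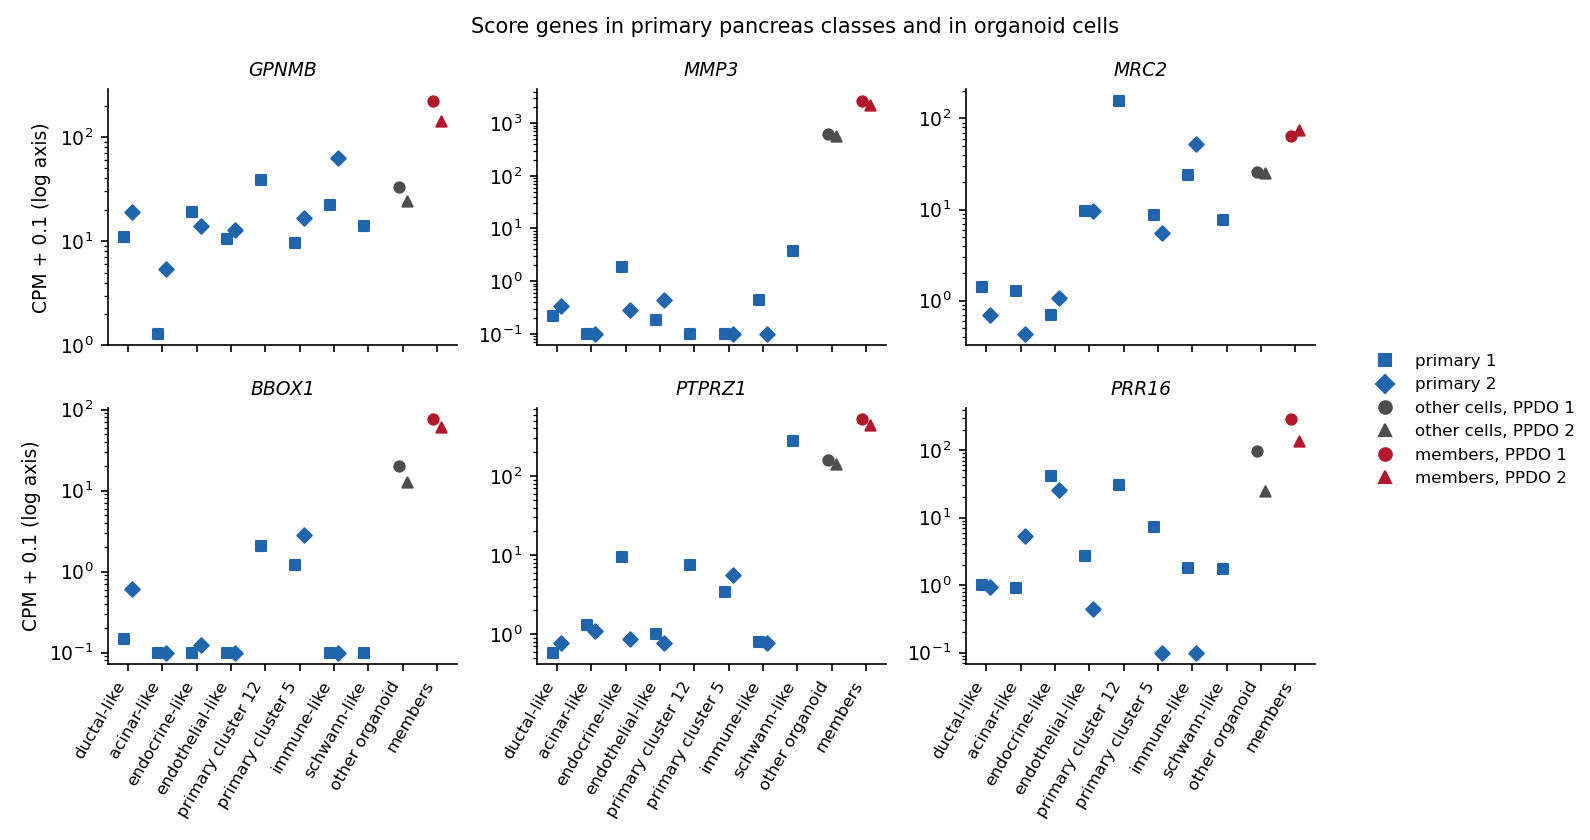
Level of the 6 score genes (CPM plus 0.1, log axis) in the classes of primary pancreas 1 (blue squares) and 2 (blue diamonds) and in other cells (grey) and members (red) of PPDO 1 (circles) and PPDO 2 (triangles); primary cluster 5 was led by smooth muscle genes, primary cluster 12 is the stellate-like one, and groups under 20 cells are not drawn. MRC2 in primary cluster 12 of primary pancreas 1 lies at 157 beside 64.2 and 75 in members, PTPRZ1 in schwann-like cells of primary pancreas 1 at 281 beside 520 and 440, and MMP3 and BBOX1 stay under 4 CPM in every class of the organ.

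Summed counts of members were then compared with those of primary ductal-like cells, 2165 and 1188 cells with 43225916 and 25359901 UMIs, against 60461926 and 49441202 UMIs in members. This asks how these organoid cells differ from the duct cells of the organ, and culture, passage and animal differ along with the cell group, so these cannot be told apart. In edgeR's quasi-likelihood test 9642 of 20070 genes (48%) passed at a Benjamini-Hochberg adjusted p of 0.05, 4815 higher (24%) and 4827 lower (24.1%) in members. With library totals in place of TMM factors, a scaling added after seeing the data, all genes shifted by 0.44 on the log2 scale toward the primary cells, with 3006 higher and 6596 lower. Without PPDO 1 or PPDO 2 the number that passed fell to 4769 and 4624. The genes named first below were picked for a high level in these same member sums, so a part of their difference from ductal-like cells is built into the choice.

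Several of the highest genes were nearly absent from the ducts of the organ. ELF5 was at 66.1 and 69 CPM in members and 1.55 and 1.97 CPM in ductal-like cells, and the other organoid cells were at 15 and 18.3 CPM, a difference of members from ductal-like cells of 5.71 ± 0.17 (SE, n = 2 libraries per group; edgeR quasi-likelihood test, Benjamini-Hochberg adjusted p = 0.000269). KRT23 was at 324 and 409 CPM in members and 1.27 and 2.64 CPM in ductal-like cells, a log2 difference of 8.04 ± 0.39. NRARP was at 48.9 and 29.4 CPM and 6.13 and 3.55 CPM, with 3.4 ± 0.46 (edgeR, Benjamini-Hochberg adjusted p = 0.00533). GATA3 had 5 and 0 UMIs in the ductal-like cells and 45.5 and 28.7 CPM in members. The other direction was found for MT3, at 27.1 and 21.7 CPM in members and 424 and 689 CPM in ductal-like cells, a difference of -4.06 ± 0.24 (edgeR, Benjamini-Hochberg adjusted p = 0.000739). MT3 was thus higher in members than in the other organoid cells and lower than in the ducts. AIG1 did not pass, at 111 and 79.4 CPM against 135 and 177 CPM (edgeR, Benjamini-Hochberg adjusted p = 0.294).

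All 20 squamous genes tested were higher in members than in ductal-like cells, and 6 of 7 basal genes, the exception being DST, beside 24% of all genes. Genes nearly absent from ductal-like cells, such as KRTDAP (0.0925 and 0.158 CPM), entered this test only through members. That fixes their side in part. Of 14 duct genes, 12 were lower and none higher, beside 24.1% of all genes lower, with a median of -4.05. CFTR, the chloride channel of duct cells, was at 0.546 and 0.364 CPM in members and 952 and 795 CPM in ductal-like cells. SLC4A4, the bicarbonate cotransporter of ducts, was at 385 and 305 CPM and 22522 and 25902 CPM, a log2 difference of -5.7 ± 0.23. SOX9, the duct transcription factor, differed by -7.73 ± 0.45. KRT7, a keratin of simple epithelia, differed by -0.51 ± 0.13 (edgeR, Benjamini-Hochberg adjusted p = 0.0288). Checked against the label of duct organoids, most duct markers were thus under their level in the organ. The summed duct list was at 2628 and 1900 CPM in members and 2563 and 1867 CPM in other organoid cells. The sum of duct RNA was therefore not lower in members than in the other organoid cells, but abundant genes carry it and CFTR adds little to it. Of 10 duct genes over the level filter, 4 were higher and 5 lower in members than in other organoid cells of both libraries, beside 37.2% and 48.5% of all genes. SPP1 and WFDC2 were among the lower, while SLC4A4 had a mean log2 ratio of -0.13.

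Matrix genes again divided by member. MMP7 (matrilysin), a protease of ducts, was at 0.265 and 0.101 CPM in members and 798 and 795 CPM in ductal-like cells, a log2 difference of -11.6 ± 0.47. TIMP3 was at 18.7 and 16.1 CPM and 471 and 136 CPM, with -3.77 ± 0.73 (edgeR, Benjamini-Hochberg adjusted p = 0.0146). TIMP1 differed by 5.68 ± 0.17. PLAU was at 65.8 and 80.2 CPM in members, and primary pancreas 2 had 1 UMI of it in ductal-like cells. Of 18 proteases and inhibitors tested, 6 were higher and 5 lower, beside 24% and 24.1% of all genes. SDC1 differed by 4.65 ± 0.23, and SDC2 (syndecan-2) by -7.58 ± 0.24. MITF was at 64.1 and 65.3 CPM in members and 223 and 292 CPM in ductal-like cells, with -1.55 ± 0.13 (edgeR, Benjamini-Hochberg adjusted p = 0.00152). Of 28 lysosome genes, MITF among them, 5 were higher and 8 lower, shares near those of all genes. Of 13 carnitine genes, 2 were higher and 6 lower, among the latter CPT1A, which loads fatty acids on carnitine, with -2.37 ± 0.58.

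Genes that were low among organoid cells were on either side of the ductal-like cells. LGR6 was at 10.3 and 33 CPM in members, 86.4 and 97 CPM in other organoid cells and 0.162 and 0.434 CPM in ductal-like cells, so members had less than the other organoid cells and more than the ducts (6.72 ± 0.86). LEF1 differed from ductal-like cells by 3.17 ± 0.31 and IGFBP2 by 8.66 ± 0.63. CLU was at 24.1 and 18.2 CPM in members, 137 and 72.1 CPM in other organoid cells and 1212 and 1156 CPM in ductal-like cells (-5.38 ± 0.24). MOB3B, F3 and KIRREL1 were lower than in ductal-like cells too, with log2 differences of -4.7, -3.34 and -1.5. CXCL14 did not pass, at 31.8 and 15.5 CPM against 372 and 15.6 CPM (edgeR, Benjamini-Hochberg adjusted p = 0.19). Of 13 WNT genes 7 were higher and 2 lower, of 13 mitosis genes 6 and 1, of 13 hypoxia genes 7 and 2, and of 16 glycolysis genes 10 and 1, beside 24% higher and 24.1% lower over all genes.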

How the data were processed

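Single-cell RNA of 4 pig libraries was analysed. Per the file headers the authors counted molecules with Cell Ranger 7.1.0, and per their methods against an in-house pig annotation; the submitters' processing notes name the build Sscrofa11.1. The deposited files hold whole-number counts of UMIs for each feature in each barcode, with barcode and feature names as tables of unit other, and the SoupX correction of the study is not in them. Depth was 366263520, 316018482, 87043513 and 138928395 UMIs (PPDO 1 and 2, primary pancreas 1 and 2). Features of 1 gene, extensions of 3' ends included, were summed, and PPDO barcodes with 1000 to 9000 features and at most 3% mitochondrial UMIs were kept. Primary cells were kept under 8% mitochondrial UMIs and 9000 features, with over 400 (primary pancreas 1) or 800 features and 3000 UMIs (primary pancreas 2), and Scrublet scores up to 0.25 and 0.15. Clustering used Scanpy 1.11.5 (2000 variable genes, 20 components, 15 neighbours, leidenalg 0.10.2 at resolution 0.5), without the score genes in PPDO. Primary clusters were called "-like" from marker lists, with at least 3 markers 2-fold above the other clusters in 10% of cells or more.

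Counts were summed per library, since cells are not replicates and p-values measure only the spread between 2 libraries per group. Log2 ratios of members over other cells had 1 CPM added and a minimum of 5 CPM. Genes were named as the 15 highest and 10 lowest by the library with the smaller ratio, and by lists. The 15 and the 10 needed a unique symbol and at least 20 CPM in the higher group of each library, while the lower group could be under it. For the lists, the genes that were 2-fold different and the best known members were named. Members and lists were chosen with earlier results of these data known. Sums were tested with edgeR 4.0.16 (TMM, filterByExpr, glmQLFTest on group alone, with calls at a Benjamini-Hochberg adjusted p of 0.05); the SE is the fold change over the square root of its F statistic. DESeq2 1.42.0 was an alternative, and the edgeR script was tested on simulated data. The other alternatives were the share of cells kept, thinning, doublets, feature sums, score genes, pseudocount, filters, size factors and the replicate numbers as a block. Symbols absent from the feature names or shared by several genes (KRT14, KRT17, KRT19, MUC1 and MKI67 among the lists) were not used. Human and bulk data were not analysed here.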

Additional observations from a re-analysis of the deposited data

How the results depend on the processing

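The counts of genes 2-fold different between members and other organoid cells followed the pseudocount and the depth of the other cells. With 10 CPM added, 46 genes were higher and 29 lower, and against other cells of like depth (added after seeing the data) 53 were higher and 197 lower, beside 97 and 128. Over all 17 alternatives that kept both libraries the ranges were 46 to 134 higher and 29 to 197 lower, and leaving out PPDO 1 or PPDO 2 gave 123 to 157 higher and 160 to 258 lower. Of 918 values of 51 named genes that were 2-fold different, under all alternatives but that without the squamous clusters, 1 changed sign; this was CNFN, at -1.55, which was at 0.689 with MMP3 left out of the score. Without the squamous clusters CNFN changed sign too, at 0.0204. Of 324 values of 18 list medians under the same alternatives 12 changed sign, all in lists with a median near 0 (collagen and matrix receptors, lysosome, duct, basal and immediate early genes, from -0.16 to 0.03), and without the squamous clusters 3 did. Against ductal-like cells, leaving out a library gave 4624 to 9833 genes that passed, 2387 to 4954 higher and 2237 to 4959 lower, with the fewest without PPDO 2, where the lone organoid library was taken to vary like the primary pair. Library totals without TMM factors gave 3006 higher and 6596 lower. DESeq2 gave 9965. With the replicate numbers as a block 8313 genes passed, 4157 higher and 4156 lower; the numbers pair no animals, and the differences of same-numbered libraries correlated at -0.01. Of 232 listed genes that passed, none reversed under these alternatives, and 216 still passed with the block; 71 no longer passed without PPDO 1 and 86 without PPDO 2, against 8 and 11 without primary pancreas 1 or 2. Depth limits genes of few UMIs most in the primary cells, whose sums were smaller.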

Other observations

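Further transcription factors of stratified epithelia were among the 91 genes at least 2-fold higher in members. They were named after their values were seen, with no list or count behind them. Not all such factors were higher: TP63 and KLF4 had mean log2 ratios of 0.03 and 0.05. FOXN1, a factor of hair follicle and thymus epithelium, was at 18.6 against 5.44 CPM in PPDO 1 and 19.1 against 6.69 CPM in PPDO 2. GRHL1 and GRHL3, which act in epidermal barrier formation, had log2 ratios of 1.16 and 1.15 (GRHL1) and 1.14 and 1.08 (GRHL3) in PPDO 1 and 2. CEBPA had 1.1 and 1.08 and SOX21 1.63 and 1.45. Other genes of the 91, picked in the same way and standing for no pathway, were HMGCS1, SULT2B1, RDH12 and FGFBP1. HMGCS1, an enzyme of cholesterol synthesis, was at 224 against 94.9 CPM in PPDO 1 and 196 against 87 CPM in PPDO 2, the sterol sulfotransferase SULT2B1 had 1.22 and 1.09 and the retinal reductase RDH12 2.13 and 1.31. FGFBP1, which releases FGFs from matrix, was at 2478 against 1185 CPM in PPDO 1 and 2337 against 1023 CPM in PPDO 2.

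The Notch ligands JAG2 and DLL1 were at least 2-fold lower in members, JAG2 at 10.0 against 26 CPM in PPDO 1 and 8.09 against 22.2 CPM in PPDO 2 and DLL1 at 1.14 against 7.8 CPM in PPDO 1 and 3.7 against 13.6 CPM in PPDO 2, whereas the Notch target NRARP was higher (1.93 and 1.74). WNT3A itself was at 2.27 against 7.29 CPM in PPDO 1 and 2.99 against 8.33 CPM in PPDO 2. These genes too were named after their values were seen, and no explanation was tested. DLL1 and WNT3A passed the level filter only through the other cells, which fixes their side in part.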
